A study of Populus davidiana with 6 samples.

Results

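In the leaf transcriptome of Populus davidiana, an aspen, 448 of 40537 gene models were long unannotated loci, stretches of the genome to which the authors' assembly assigned transcripts and the Populus annotation none. A locus was taken when its gene identifier and all of its transcript identifiers had been given by the assembly, it spanned 400 bp or more from its first to its last base, and its summed level averaged at least 1 FPKM over the 6 libraries. FPKM counts sequenced fragments scaled to transcript length and to the size of the library. The same rule without its limits on span and level held for 1762 loci, of which 1147 were under 400 bp and a further 167 were long enough but under 1 FPKM. The loci were thus chosen by their span and by their mean FPKM over these same libraries, and both are only described. The coordinates are those of the deposited tables, whose genome build is not given in the sources used here.

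The study used poly(A)-selected RNA of leaves, read as pairs of 100 bp, from the cultivar Seogwang15, which the labels call drought-sensitive. All 6 samples came from seedlings multiplied by internode culture on sterile medium with sucrose and naphthalene acetic acid, an auxin, and they were used at about 6 weeks of age. The 3 control samples carried no drying treatment in their labels. For the 3 air-dried samples, plants were taken out of the medium, rinsed with water and exposed to open air for about 10 min. Whether the control plants were also uprooted and rinsed is not stated, so handling and drying cannot be told apart. The labels do not state either whether replicates are separate plants, so p-values below reflect the spread among these libraries alone, which may be technical. The tables hold no gene names, so leaf markers could not be checked.

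An assembler such as Cufflinks joins overlapping aligned reads into transcripts and reports those that match no annotated gene as separate loci. Loci of this kind in plants can be long noncoding RNAs, protein-coding genes that the annotation lacks, transposon transcripts, or parts of a neighbouring gene. In libraries that keep no strand, the assembler takes the strand of a transcript from its splice junctions, and a transcript without a junction gets none. No strand-specific protocol is named in the labels, so reads from overlapping loci on opposite strands cannot be told apart. No sequence is printed, because no genome was used here.

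Both replicate 1 libraries differed from the remaining libraries. Across the 448 loci, log2(FPKM + 1) correlated between control 1 and the other libraries at r = 0.46 to 0.62, between air-dried 1 and the 4 replicate 2 and 3 libraries at r = 0.63 to 0.74, and among the replicates 2 and 3 at r = 0.84 to 0.94. Over all 22818 tested gene models the corresponding values were 0.55 to 0.67, 0.78 to 0.83 and 0.90 to 0.94, so the difference was not particular to the loci. These correlations are across loci or models within the same libraries and are given as a description. In control 1, 64 of the loci were listed at 0 and 14 lay above 1000 FPKM, and in air-dried 1 these numbers were 16 and 11. In the other 4 libraries 5 to 10 loci were listed at 0 and at most 2 lay above 1000 FPKM. An exact 0 in such a table can be a failed estimate. Of the 448 loci, 21 had a mean under 1 FPKM over the replicates 2 and 3 and so reached the limit only through a replicate 1 library.

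**Figure D1:**
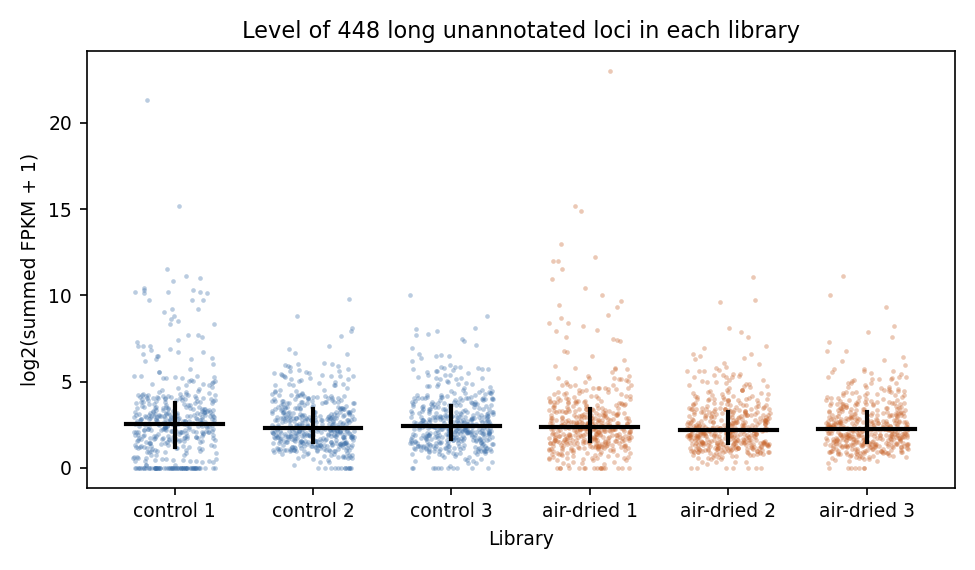
Summed level, as log2(FPKM + 1), of each of the 448 loci in the 6 libraries. Each point is a locus, the horizontal bar is the median and the vertical bar runs from the lower to the upper quartile. The medians lie between 3.63 and 4.96 FPKM, while control 1 and air-dried 1 have the longest upper tails and control 1 the most loci at 0.

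Most of the loci were short relative to annotated gene models and held a single transcript. The median span was 798 bp, with quartiles of 529 and 1416 bp and a range of 401 to 15061 bp. The 19274 annotated models (POPTR identifiers) with at least 1 FPKM had a median span of 3380 bp. Spans and transcript numbers of these models include the transcripts that the assembly added to them. A single transcript made up 344 of the 448 loci (76.8%), compared with 25.7% of those annotated models. The assembly gave no strand to 145 loci, placed 152 on the plus strand and 151 on the minus strand. All 145 strandless loci held 1 transcript, and their median span was 513 bp against 1075 bp for the 303 with a strand. Among the 95 loci under 500 bp 68 had no strand, and among the 77 of 2000 bp or more 1 had none.

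**Figure D2:**
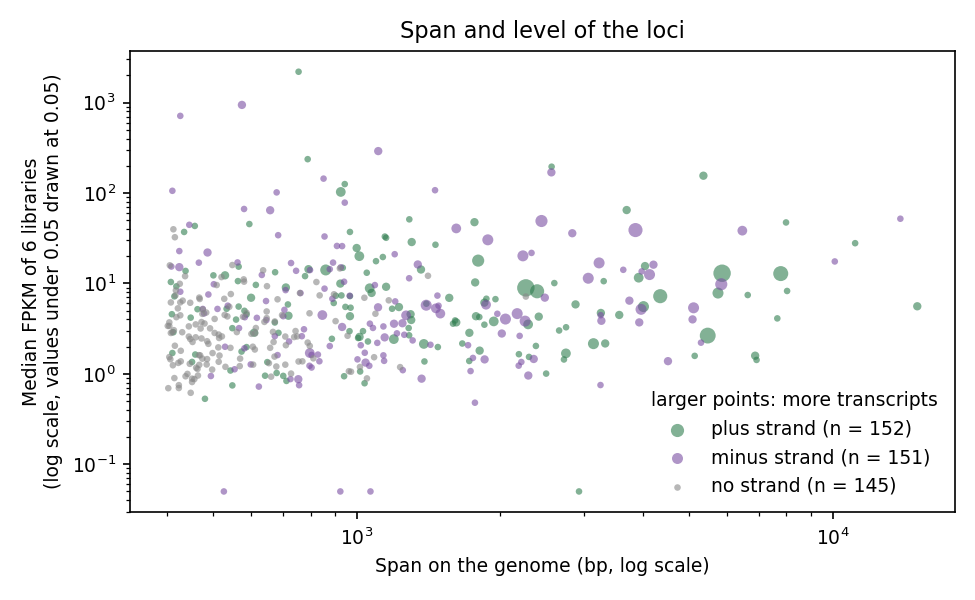
Span on the genome against the median FPKM of the 6 libraries for the 448 loci, on log axes, coloured by strand, with larger points for more transcripts and medians under 0.05 FPKM drawn at 0.05. Strandless loci gather at the short end with a median level of 2.71 FPKM, and the longest loci nearly all have a strand.

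The loci lay on all 19 chromosomes, with 45 on 39 unplaced scaffolds. Chromosome 1 held 40 of them, chromosome 10 held 38 and chromosome 7 held 8. Per 1000 gene models of any kind these are 8.74, 15.3 and 5.59 loci.

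The typical locus was transcribed at a low level. The median of the 6 libraries was 4.12 FPKM at the middle locus, with quartiles of 1.90 and 9.38 FPKM, against 11.8 FPKM for the annotated models with at least 1 FPKM. It reached 10 FPKM in 105 loci and 100 FPKM in 14, and it was under 1 FPKM in 33. At least 1 FPKM in every library was found for 284 loci. The median level was 3.18 FPKM in loci under 500 bp, 4.16 FPKM from 500 bp up to 1000 bp, 3.89 FPKM from there up to 2000 bp and 5.53 FPKM in those of 2000 bp or more. It was 5.18 FPKM with a strand and 2.71 FPKM without. FPKM is scaled to transcript length, but these groups are by span on the genome and the levels are sums over transcripts. The differences were not tested. Unannotated loci under 400 bp with at least 1 FPKM had a median level of 10.4 FPKM, with quartiles of 1.12 and 46.9 FPKM. Their median span was 177 bp, and 307 of these 902 had at least 1 FPKM in every library. The median log2 ratio of control 1 to the mean of controls 2 and 3, with 1 FPKM added to each, was 1.95. In the 448 loci it was 0.16.

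Ranked by the mean of the 6 libraries, the leading loci owed their place to a replicate 1 library. On chromosome 2 between 2829550 and 2830593, a locus had 7.09, 1.05 and 1.62 FPKM in controls 1, 2 and 3 and 8510000, 0.865 and 0.837 FPKM in air-dried 1, 2 and 3. A locus on chromosome 11 between 16002561 and 16003629 was listed at 2600000 FPKM in control 1 and at 0 in the other 5 libraries. Each of these means rests on 1 library and describes no level that the other libraries share. Altogether 24 loci had over 10 times as much in control 1 as the mean of the replicates 2 and 3, and 18 had so in air-dried 1. None of these passed the test of drying described below.

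The median of the 6 libraries, chosen as a ranking after the values were seen, put other loci forward. The highest median belonged to a 755 bp locus on the plus strand of scaffold_496 between 4888 and 5642, with 37715, 886 and 1041 FPKM in the controls and 30781, 2125 and 2256 FPKM in the air-dried libraries. It was high in every library, and both replicate 1 values were above all others. On the minus strand of chromosome 6, a 574 bp locus between 1809775 and 1810348 had 2063, 448 and 453 FPKM among controls and 8184, 850 and 1032 FPKM after drying. It lay inside the outer ends of a same-strand POPTR model, but only with the transcripts that the assembly had added to that model. Only outer ends were compared, so whether the 2 share transcribed bases is not known. Where they do, their reads cannot be told apart. A 426 bp locus on the minus strand of chromosome 12 between 3984094 and 3984519 had 864, 67.8 and 56.8 FPKM among controls and 36533, 791 and 633 FPKM after drying. In these 3 loci the values of the replicates 2 and 3 were higher after drying and their control and air-dried ranges overlapped once the replicate 1 libraries were included. None of the 3 passed the test with all 6 libraries (limma adjusted p = 0.27 to 0.85), whereas each rose when both replicate 1 libraries were left out (limma adjusted p = 0.0082 to 0.026).

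Some loci held nearly the same level in every library. By the rule for the smallest standard deviation of log2(FPKM + 1) among loci with a mean of at least 10 FPKM, the steadiest was a 2568 bp locus on the plus strand of chromosome 7 between 1048153 and 1050720. It had 209, 199.7 and 206 FPKM in the controls and 191, 190.4 and 190.1 FPKM in the air-dried libraries. The 3 air-dried values were below the 3 control values, but the difference did not pass the test (limma adjusted p = 0.31). This locus lay upstream of an annotated model on its strand and ended 62 bp before that model's 5′ end. The next was a 1305 bp locus with 2 transcripts on chromosome 5 between 53694 and 54998, with 29.0, 26.6 and 27.6 FPKM in the controls and 28.3, 30.4 and 29.3 FPKM after drying, where the groups overlapped. A 3632 bp locus on chromosome 2 between 7896638 and 7900269 came after it, at 14.7, 13.3 and 12.9 FPKM in the controls and 14.2, 14.1 and 15.6 FPKM after drying. In all 3 the replicate 1 libraries lay with the others.

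The longest loci were mixed in their behaviour. The longest of all spanned 15061 bp on chromosome 14 and fell after drying, as described below. Next came a 13878 bp locus with 1 transcript on the minus strand of chromosome 5 between 11874563 and 11888440, at 64.6, 51.2 and 52.6 FPKM in the controls and 53.9, 48.2 and 48.6 FPKM in the air-dried libraries. Its groups overlapped. The 11151 bp locus on chromosome 12 between 3536673 and 3547823 had 2264, 29.7 and 26.0 FPKM among controls and 52.0, 25.7 and 3.89 FPKM after drying. A 10105 bp locus on chromosome 10 between 3226199 and 3236303 had 592, 15.6 and 19.4 FPKM among controls and 6.55, 21.5 and 11.4 FPKM after drying. In the last 2, control 1 was far above the other 5 libraries.

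The assembly gave 2 or more transcripts to 104 loci, and the 448 loci held 654 transcripts in all. In the replicates 2 and 3 the leading transcript of these 104 carried a median of 66.6% of the summed FPKM, with quartiles of 59.2% and 82.3%, and 90% or more in 17. The leading transcript, taken from the mean of replicates 2 and 3, differed between the groups in 26 of the 104. It also differed between controls 2 and 3 in 24 and between air-dried 2 and 3 in 23, and between a single control and a single air-dried library of these in 30 to 37. Which transcript leads was therefore not stable between replicates of a group either.

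The loci with the most transcripts differed in how steady their sums were. The 8 transcripts of the 7780 bp locus on the plus strand of chromosome 10 between 11000455 and 11008234 summed to 16.4, 13.0 and 12.0 FPKM in the controls and 13.2, 12.7 and 12.5 FPKM after drying. Its leading transcript had 12.8, 6.16 and 7.33 FPKM in the controls and 9.86, 7.20 and 6.68 FPKM after drying. The second was practically 0 in control 1 (2.88e-23 FPKM) and had 4.77 and 2.11 FPKM in controls 2 and 3. On chromosome 4, a 5858 bp locus between 13548625 and 13554482 with 11 transcripts summed to 20.4, 12.7 and 15.4 FPKM in the controls and 11.9, 11.5 and 13.2 FPKM after drying. A 2267 bp locus between 8948687 and 8950953 on the same chromosome also had 11 transcripts, with sums of 10.8, 8.33 and 7.96 FPKM and of 6.86, 9.51 and 11.3 FPKM. Also on chromosome 4, a 5465 bp locus between 7730735 and 7736199 with 9 transcripts had sums of 3.66, 2.83 and 2.44 FPKM in the controls and 4.37, 2.46 and 2.09 FPKM after drying. A minus-strand locus of the same class, between 7730905 and 7736194 with a median of 2.21 FPKM, overlaps this plus-strand locus. Reads of these overlapping loci cannot be told apart. The groups overlapped in each of the 4 loci with the most transcripts.

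Distances from the loci to annotated genes are described without a comparison set of other positions. For the 432 loci on a sequence that holds a model with a POPTR identifier, the median distance between nearest ends was 1001 bp, with quartiles of 183 and 3067 bp. Within 1000 bp lay 216 of the 432, within 5000 bp 360, and the farthest was 70098 bp away. The other 16 loci were on scaffolds without such a model. A model was taken here from the first to the last base of all its transcripts, those added by the assembly included, and 54 loci overlapped a model by this measure. When only annotated transcripts marked its ends, 0 loci overlapped a model and the median distance was 1521 bp. Some extended models were very long, such as the 302591 bp model on chromosome 19 and the 284625 bp model on chromosome 3 that each contain a locus that passed the test below. Counting also the loci in which the assembly had merged several annotated genes, an alternative chosen after the data were seen, the median distance was 649 bp and 77 loci overlapped.

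**Figure D3:**
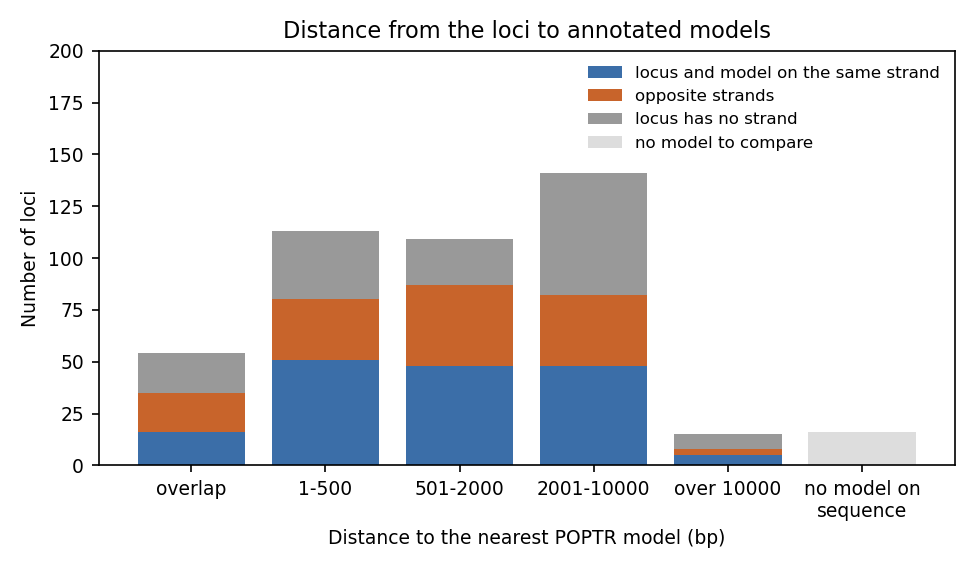
Number of loci by distance to the nearest POPTR model, stacked by whether locus and model lie on the same strand. Overlapping loci number 54, the 3 middle bins hold 113, 109 and 141, and 15 loci lie farther away.

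Relative to the nearest model, 176 loci lay beyond its 3′ end and 202 beyond its 5′ end, 44 lay inside it and 10 overlapped part of it. Beyond the 3′ end, 77 were on the model's strand, 65 on the other strand and 34 had no strand. Beyond the 5′ end the numbers were 75, 40 and 87. The median level was 4.40 FPKM beyond the 3′ end and 4.12 FPKM beyond the 5′ end, a difference that was not tested.

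The nearest loci without overlap were 8, 39 and 41 bp from a model. The first of them, 1289 bp on chromosome 16 between 7192624 and 7193912, was listed at 0 in control 1 and had 2.53 and 3.75 FPKM in controls 2 and 3 and 1.85, 2.81 and 3.43 FPKM after drying. A 573 bp locus on chromosome 18 between 10341999 and 10342571 had 1.70, 1.82 and 1.22 FPKM among controls and 2.79, 2.86 and 1.35 FPKM after drying. The last, 426 bp on chromosome 14 between 1474493 and 1474918, had 0, 11.0 and 10.2 FPKM in controls 1, 2 and 3 and had 35.9, 5.81 and 6.01 FPKM after drying. All 3 were on the strand opposite to the model, and their groups overlapped. The chromosome 14 locus fell when both replicate 1 libraries were left out (limma adjusted p = 0.024). The most remote loci were 5131 bp on scaffold_34, 6632 bp on scaffold_26 and 426 bp on chromosome 12 between 4331799 and 4332224, at 70098, 42124 and 23716 bp, with medians of 1.58, 7.43 and 6.16 FPKM over the 6 libraries.

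After air-drying 27 of the 448 loci changed, of which 9 rose and 18 fell. The test was limma on log2(FPKM + 1), fitted to all 22818 gene models with a mean of at least 1 FPKM, with Benjamini-Hochberg adjustment and a call at an adjusted p under 0.05. Over all tested models it called 8.02%, with 5.39% rising and 2.62% falling. The shares in the loci were 6.03% called, 2.01% rising and 4.02% falling. Falls outnumbered rises in the loci and rises outnumbered falls in all models, though no test compared the shares. Among the 902 unannotated loci under 400 bp with at least 1 FPKM, falls outnumbered rises too, at 1.55% against 0.55%. The median log2 change was -0.11 over the loci and 0.03 over all tested models. Air-dried values that all lay above the controls were seen in 33 loci and values that all lay below in 77, while in all tested models such rises made up 19.6% and such falls 14.2%. Changes of at least 2-fold, on the log2(FPKM + 1) scale, numbered 6 up and 9 down among the called loci.

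**Figure D4:**
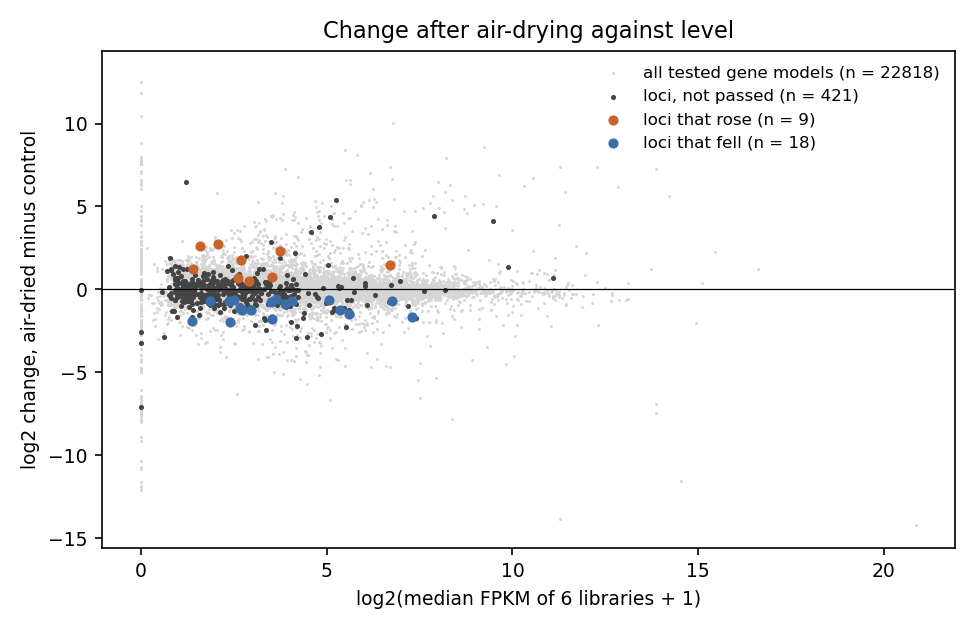
Change after air-drying, as the difference of log2(FPKM + 1) between group means, against log2(median FPKM of the 6 libraries + 1). Grey points are all 22818 tested gene models, dark points the 421 loci that did not pass, and coloured points the 9 that rose and the 18 that fell. The coloured points stand away from the zero line on both sides, and several dark points with larger changes did not pass.

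The count depended on the libraries used. Without both replicate 1 libraries 54 of the loci (12.1%) were called, 17 rising and 37 falling. The same fit called 12.1% of all tested models, 7.99% rising and 4.13% falling. Of the 27 loci, 22 were called in the same direction there, 8 that rose and 14 that fell. Leaving out control 2 gave 6 called loci, control 3 gave 4, and air-dried 2 or air-dried 3 gave 2 each, whereas 31 were called without control 1 and 19 without air-dried 1. The median level was 10.5 FPKM over the falling loci, 5.49 FPKM over the rising ones and 3.86 FPKM over the rest. Their median spans were 890, 941 and 796 bp. Because the level limit is a mean over both groups, a locus can enter through its higher group alone. The control mean was under 1 FPKM in 26 loci, of which 3 rose, and the air-dried mean was under 1 FPKM in 26 others, of which 1 fell. These 52 had to differ between the groups to be included, and their calls are no support for a response of the loci as a class.

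The locus that kept its call in all 18 alternatives was XLOC_036318, 605 bp without a strand on chromosome 8 between 9284125 and 9284729. It was listed at 0 in all 3 controls and had 6.54, 3.98 and 4.83 FPKM after drying in replicates 1, 2 and 3 (limma adjusted p = 0.0023, and 0.00027 to 0.034 over the alternatives). The groups did not overlap, and no fold is given against controls listed at 0. It met the level limit through its air-dried values alone, so it had to differ between the groups, and its p and the number of fits that called it are descriptions and no support. It lay 3515 bp beyond the 3′ end of a model that had 1.08, 1.88 and 1.85 FPKM in the controls and 1.41, 1.97 and 2.35 FPKM after drying and did not pass.

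Among the loci that passed the test, the largest fitted rise was that of XLOC_031331, 1082 bp on the minus strand of chromosome 6 between 1056792 and 1057873. It had 0, 0.595 and 0.803 FPKM in controls 1, 2 and 3 and 17.2, 5.89 and 5.63 FPKM in the air-dried libraries. All air-dried values were above all control values, and air-dried 1 was the highest. With a control mean of 0.466 FPKM, this locus too met the level limit through its air-dried values alone, and its test is given as a description. The log2 change was 2.73 (SE 0.47, limma adjusted p = 0.029), and 1.99 without both replicate 1 libraries (limma adjusted p = 0.0088). Only without air-dried 1 did it keep its call when a single library was left out (otherwise limma adjusted p = 0.065 to 0.092), with log2 changes of 2.25 to 2.98 over the 6 omissions. The nearest model, 879 bp away and on the same strand with the locus beyond its 5′ end, rose as well, from 14.6, 12.6 and 12.4 FPKM to 33.0, 39.2 and 37.7 FPKM (limma log2 change 1.41 with SE 0.098 and adjusted p = 0.0022).

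Also on the minus strand of chromosome 6, a 632 bp locus between 191927 and 192558 had 5.86, 2.86 and 2.86 FPKM among controls and 30.3, 20.5 and 18.9 FPKM after drying. The groups were well separated, with a 6.02-fold difference of the means (limma log2 change 2.35 with SE 0.30 and adjusted p = 0.012). Without control 2, control 3, air-dried 2 or air-dried 3 it narrowly missed the threshold (limma adjusted p = 0.054 to 0.063). The annotated model 365 bp away on the opposite strand, whose 3′ end faces the locus, had 7.17 ± 0.818 FPKM (SD, n = 3) in the controls and 7.65 ± 0.955 FPKM (SD, n = 3) after drying and did not pass.

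A 947 bp locus on the plus strand of chromosome 1 between 40731804 and 40732750 had 2.96, 1.20 and 1.41 FPKM among controls and 8.70, 8.11 and 8.03 FPKM after drying. The air-dried values were close together and all above the controls, 4.46-fold on average (limma log2 change 1.75 with SE 0.24 and adjusted p = 0.015). Its call was lost without control 2, control 3 or any air-dried library (limma adjusted p = 0.052 to 0.076). It ended 306 bp before the start of a strongly expressed model on the same strand, which had 762, 1044 and 1174 FPKM in the controls and 1731, 2097 and 1906 FPKM after drying. That model's values did not overlap between the groups either, and it missed the threshold (limma adjusted p = 0.051).

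The most abundant of the rising loci spanned 926 bp with 3 transcripts on the plus strand of chromosome 1 between 1856607 and 1857532. It had 71.9, 61.1 and 53.8 FPKM in the controls and 247, 133 and 157 FPKM after drying. Every air-dried value was above every control value, and the means differed 2.87-fold (limma log2 change 1.47 with SE 0.25 and adjusted p = 0.028). Its call was lost without control 2, control 3, air-dried 2 or air-dried 3 (limma adjusted p = 0.060 to 0.11). The nearest model, 9321 bp away, was listed at 0 in all 6 libraries.

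On chromosome 9, a 2192 bp locus on the plus strand between 11097291 and 11099482 rose from 0.953, 0.568 and 0.691 FPKM to 2.34, 3.28 and 3.71 FPKM, 4.22-fold (limma log2 change 1.23 with SE 0.18 and adjusted p = 0.018). It is the remaining one of the 3 rising loci that met the level limit through their air-dried values alone, and its test is likewise a description. A 941 bp locus on the minus strand of chromosome 2 between 20625896 and 20626836 rose from 6.85, 8.37 and 7.32 FPKM to 13.6, 14.6 and 12.5 FPKM, 1.80 times (limma log2 change 0.77 with SE 0.10 and adjusted p = 0.012). It shares its end with a plus-strand locus of the same class between 20626158 and 20626836, which was practically 0 in control 1, had 0.570 and 1.25 FPKM in controls 2 and 3 and 0.794, 3.30 and 6.30 FPKM after drying, and did not pass. The remaining rises were of 1.74 times for a strandless 475 bp locus on chromosome 1 between 28921563 and 28922037 (limma adjusted p = 0.0499) and of 1.52 times for a strandless 1168 bp locus on chromosome 3 between 13172274 and 13173441 (limma adjusted p = 0.030). The chromosome 3 locus lay inside the very long model named above, which had 70.3, 44.4 and 34.5 FPKM in the controls and 27.4, 15.0 and 17.6 FPKM after drying and did not pass (limma adjusted p = 0.089). Each of these 4 calls was lost without air-dried 2 or air-dried 3, and none was lost without control 1. The call on chromosome 2 was also lost without control 3, that on chromosome 3 without control 2 or air-dried 1, that on chromosome 9 without control 2 or control 3, and that of the 475 bp locus without control 2, control 3 or air-dried 1 (limma adjusted p = 0.052 to 0.18 over these fits). The chromosome 3 locus was not called without both replicate 1 libraries either (limma adjusted p = 0.071).

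**Figure D5:**
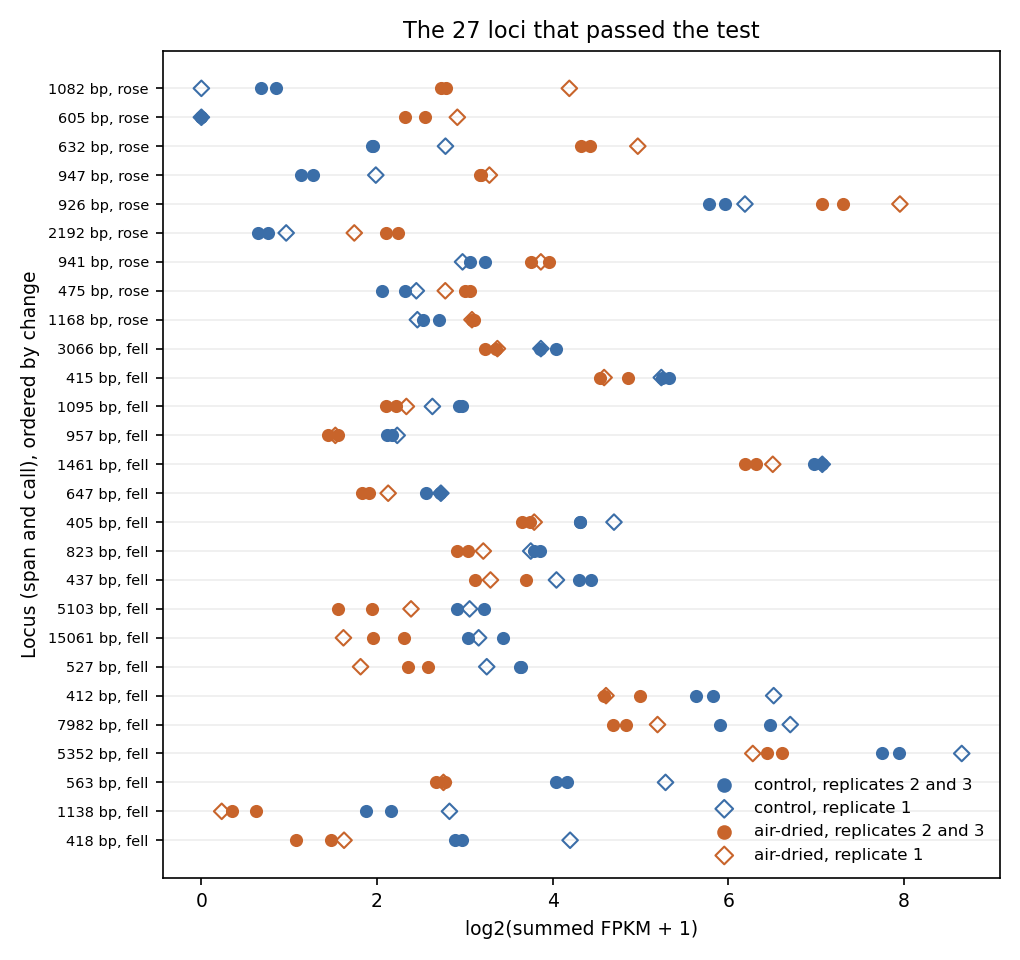
Values of the 27 loci that passed the test, as log2(FPKM + 1), in each of the 6 libraries, one row per locus labelled by its span and ordered by its change. Open diamonds are the replicate 1 libraries and filled circles the replicates 2 and 3. No row has overlapping groups.

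Among the loci that fell, the largest fitted change was that of XLOC_020333, 418 bp without a strand on chromosome 19 between 15349684 and 15350101. It had 17.3, 6.38 and 6.82 FPKM in the controls and 2.08, 1.11 and 1.79 FPKM after drying. The groups did not overlap, and control 1 was the highest of all (limma log2 change -1.96 with SE 0.40 and adjusted p = 0.045). Its call was lost without any single library other than control 1 (limma adjusted p = 0.083 to 0.16). The locus lies within a longer minus-strand locus of the same class, between 15348833 and 15352573, which did not pass.

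XLOC_022273, 1138 bp on the minus strand of chromosome 2 between 10157179 and 10158316, had 6.08, 2.66 and 3.45 FPKM among controls and 0.174, 0.276 and 0.543 FPKM after drying. The air-dried values were low in all 3 libraries, and the group means differed 12.3-fold (limma log2 change -1.88 with SE 0.28 and adjusted p = 0.019). Its air-dried mean was 0.331 FPKM, so it met the level limit through its control values alone, and the fold and test are a description. Its call was lost without control 3 or any air-dried library (limma adjusted p = 0.065 to 0.091). It lay inside a POPTR model on its strand as extended by assembled transcripts, and outside it by annotated transcripts alone. That model had 30.5 ± 1.94 FPKM (SD, n = 3) in the controls and 25.6 ± 0.947 FPKM (SD, n = 3) after drying and did not pass. Reads of the locus and of that model cannot be told apart where they share transcribed bases, and only outer ends were compared.

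The most abundant falling locus had 2 transcripts over 5352 bp on the plus strand of chromosome 1 between 46608475 and 46613826. It had 402, 246 and 214 FPKM in the controls and 76.6, 96.6 and 85.8 FPKM after drying. Each air-dried library was below each control, and the group means differed 3.33-fold (limma log2 change -1.67 with SE 0.25 and adjusted p = 0.020). It missed the threshold without control 2 or any air-dried library (limma adjusted p = 0.067 to 0.095). With the highest transcript in place of the sum the locus was not called either (limma adjusted p = 0.14). An annotated model ended 201 bp before it on the same strand, and that model was at 0 in each control and at no more than 0.0473 FPKM after drying.

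A 1461 bp locus on the minus strand of chromosome 8 between 13027837 and 13029297 had 133, 133 and 125 FPKM among controls and 89.8, 78.4 and 72.1 FPKM after drying. Each group was tight, and the group means differed 1.63-fold (limma log2 change -0.70 with SE 0.095 and adjusted p = 0.014). Without control 2, control 3, air-dried 2 or air-dried 3 it was not called (limma adjusted p = 0.060 to 0.082). It overlapped part of a same-strand model, but only with the transcripts that the assembly had added to that model. The model had 497 ± 31.7 FPKM (SD, n = 3) in the controls and 433 ± 14.9 FPKM (SD, n = 3) after drying and did not pass.

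The falling loci on unplaced scaffolds were 3. On scaffold_117, a 7982 bp locus between 20307 and 28288 had 103, 58.8 and 87.6 FPKM among controls and 35.6, 27.6 and 24.8 FPKM after drying (limma log2 change -1.45 with SE 0.24 and adjusted p = 0.027). This locus lay inside a same-strand model of 53145 bp, as extended by assembled transcripts, which did not pass (limma adjusted p = 0.21). That model had 14.7, 4.86 and 5.01 FPKM in the controls and 4.42, 1.94 and 2.20 FPKM after drying. A second locus of the class, between 21304 and 29326 on the same strand, overlapped the 7982 bp locus. It had 10.6, 7.39 and 9.65 FPKM in the controls and 3.51, 9.09 and 4.91 FPKM after drying, with overlapping groups. On scaffold_124, a 563 bp locus between 20964 and 21526 had 38.0, 15.4 and 16.9 FPKM among controls and 5.75, 5.84 and 5.38 FPKM after drying (limma log2 change -1.76 with SE 0.34 and adjusted p = 0.041). Its nearest model, 6950 bp away on the same strand, rose from 0.357, 0.726 and 0.701 FPKM to 1.73, 1.71 and 2.20 FPKM (limma adjusted p = 0.037). On scaffold_411, a strandless 527 bp locus between 1768 and 2294 had 8.50, 11.5 and 11.4 FPKM among controls and 2.51, 5.0 and 4.11 FPKM after drying (limma log2 change -1.26 with SE 0.23 and adjusted p = 0.036). The groups of all 3 loci did not overlap. The call on scaffold_117 was lost without any single library other than control 2, and those on scaffold_124 and scaffold_411 without any single library other than control 1 (limma adjusted p = 0.051 to 0.15 over these fits).

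The longest locus of the class, 15061 bp with 2 transcripts on the plus strand of chromosome 14 between 7399178 and 7414238, had 7.92, 7.20 and 9.80 FPKM among controls and 2.07, 2.88 and 3.96 FPKM after drying. The highest air-dried value was below the lowest control value, with a 2.80-fold difference of the means (limma log2 change -1.25 with SE 0.21 and adjusted p = 0.027). It was not called without both replicate 1 libraries (log2 change -1.10, limma adjusted p = 0.063) or without any single library other than air-dried 3 (limma adjusted p = 0.055 to 0.11). It overlapped a same-strand model of 14644 bp, as extended by assembled transcripts. That model had 8.99, 4.56 and 2.76 FPKM in the controls and 1.95, 0.616 and 1.56 FPKM after drying and did not pass. On chromosome 18, a strandless 412 bp locus between 14960414 and 14960825 had 90.5, 48.5 and 55.7 FPKM among controls and 23.4, 30.8 and 23.0 FPKM after drying (limma log2 change -1.26 with SE 0.26 and adjusted p = 0.047). It too was not called without both replicate 1 libraries (limma adjusted p = 0.058) or without any single library other than control 1 (limma adjusted p = 0.071 to 0.17). It lay 128 bp before the 5′ end of a model that fell with it, from 67.7, 67.9 and 66.4 FPKM to 41.7, 48.3 and 49.8 FPKM (limma log2 change -0.53 with SE 0.080 and adjusted p = 0.020).

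The 10 smaller falls, the 1461 bp locus included, had log2 changes between -1.10 and -0.60 and differed 1.54-fold to 2.46-fold between the group means. Their spans were 405 to 5103 bp, and 6 of them had no strand. Every one of them lost its call without control 2, control 3 or air-dried 3 (limma adjusted p = 0.052 to 0.17 over all single libraries whose omission ended a call). The smallest p among them belonged to a strandless 823 bp locus on chromosome 2 between 13515106 and 13515928, with 12.5, 12.8 and 13.5 FPKM in the controls and 8.25, 6.54 and 7.20 FPKM after drying (limma adjusted p = 0.013). Groups were also tight in a strandless 957 bp locus on chromosome 17 between 4380832 and 4381788, at 3.69, 3.34 and 3.50 FPKM in the controls and 1.88, 1.71 and 1.93 FPKM after drying (limma adjusted p = 0.017).

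Of the 27 nearest models, 7 were under 1 FPKM on average and were not tested. Among the other 20, 3 were called in the direction of their locus, 2 in the opposite direction and 15 were not called. Over all 286 loci with a tested neighbour, changed or not, 28 neighbours were called (9.79%), and the shares were not compared by any test. The shared directions were those of XLOC_031331, of the 412 bp locus on chromosome 18 and of a 5103 bp falling locus on chromosome 18 between 11694344 and 11699446, whose neighbour 6086 bp away fell from 21.6, 15.7 and 15.6 FPKM to 8.21, 9.52 and 10.4 FPKM (limma adjusted p = 0.036). The opposite directions were those of the scaffold_124 locus and of a falling 415 bp locus on chromosome 5 between 11875284 and 11875698, whose neighbour 5500 bp away rose from 22.5, 26.1 and 24.4 FPKM to 31.2, 35.4 and 31.6 FPKM (limma adjusted p = 0.046). That 415 bp locus lay within the 13878 bp locus on the minus strand, which did not pass. Over the 286 loci with a tested neighbour, the changes of locus and neighbour correlated at r = 0.11, at r = 0.19 over the 138 that overlapped it or lay within 500 bp, at r = 0.32 over the 69 farther off but within 2000 bp and at r = -0.06 over the other 79. These are correlations across loci measured in the same 6 libraries and are given as a description. They use the fit on all 6 libraries, in which 1 extreme replicate 1 value can set a large change. They were not computed without the replicate 1 libraries.

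Loci of the class also lay beside each other. Pairs of neighbouring loci within 5000 bp numbered 42, of which 11 overlapped, 7 of these on opposite strands. A changed locus was part of 9 pairs, and in 0 pairs did both loci pass. One pair on opposite strands, chosen after its values were seen, lay on chromosome 4 and began at the same base, 17271084. Its plus-strand locus of 500 bp had 12.0, 8.47 and 12.6 FPKM in the controls and 13.1, 14.3 and 11.3 FPKM after drying, and its minus-strand locus of 3853 bp with 7 transcripts had 33.4, 42.0 and 36.6 FPKM and 32.8, 41.1 and 43.4 FPKM. Groups overlapped in both.

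At the limits of the rule, the loci just inside 400 bp spanned 401 and 402 bp with means of 2.82 and 2.21 FPKM, and those just outside both spanned 398 bp with means of 3.10 and 1.48 FPKM. The loci just inside 1 FPKM had means of 1.005 and 1.01 FPKM, and those just outside 0.991 and 0.988 FPKM.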

How the data were processed

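Poly(A)-selected leaf RNA of 3 control and 3 air-dried samples was sequenced in pairs of 100 bp, per the labels' protocols. The authors deposited FPKM per transcript, 1 table per library, over the same 112919 transcripts, per the file headers. The submitters' processing notes name FastQC, TopHat and Cufflinks without versions. The genome build is not given in the sources used here, nor is the annotation release. No libraries were identical (0 pairs).

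Transcript values were summed per gene model. Models with a mean of at least 1 FPKM (22818) entered one fit by limma 3.58.1 (R 4.3.3) with a mean-variance trend, on log2(FPKM + 1), air-dried against control. Such fold changes understate those of low genes. A model was called at a Benjamini-Hochberg adjusted p under 0.05. The script was tested on simulated data. Distances run between the nearest ends of locus and model.

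Read counts are not in the tables and total depth is unknown. In annotated models under 0.5 FPKM and over 1000 bp with 1 transcript, ratios of control 2 to control 3 fell within 0.03 of a log2 ratio of -0.21 in 22.7% of 1581 models, and the corresponding ratios of replicates 2 and 3 after drying clustered at 0.26 (21.1% of 1912), so 1 fragment was worth 0.865 and 1.20 times as much, respectively. Ratios of control 1 to control 2 and of air-dried 1 to air-dried 2 had no such peak (5.35% and 6.83%).

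The loci, the tests and the alternatives were chosen with earlier results of these data known. Loci named are those changed (up to 8 per direction by size), the 5 highest by mean, the 4 longest, the 4 with most transcripts, the 3 nearest and 3 farthest from a model, the 3 steadiest and those at the limits. Others named were chosen after their values were seen. Identifiers are printed for at most 2 loci that rose and 2 that fell, since the tables pair none with a name. Alternatives were other pseudocounts, filters, scalings, variance settings, a replicate block, membership limits and leaving out libraries.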

Additional observations from a re-analysis of the deposited data

How the results depend on the processing

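All 27 called loci kept their direction in each of the 18 other fits. The groups of each did not overlap, so leaving out libraries or changing the pseudocount, filter or variance setting could not reverse a direction. The same holds for array weights and the replicate block. Of the 27, all were called with array weights, a median filter, median-of-ratios scaling or robust variances, 15 with the highest transcript in place of the sum, 19 without a filter and 6 with a replicate block. All 5 called loci with 2 or more transcripts lost their call with the highest transcript (limma adjusted p = 0.093 to 0.18). The other calls lost in that fit were of loci with 1 transcript, whose values and log2 changes were the same as before. Only their standard errors and adjusted p, which draw on all models, differed. The number of called loci, 27, moved to 16 with the highest transcript (1094 of all models against 1829), to 81 with array weights (5334), to 8 with a replicate block (661) and to 54 without both replicate 1 libraries (2767); it was 19 to 35 under the other scalings, filters, pseudocounts and variance settings and 21 to 38 under other membership limits. Leaving out 1 library gave 2 to 31 loci and 474 to 1995 models; these fits have fewer samples. Other causes were not tested. Same-numbered libraries deviated from their group means with r = 0.017, 0.044 and 0.014, so the replicate numbers were not taken as a pairing. The 448 loci became 204 with a mean of at least 5 FPKM and 284 with at least 1 FPKM in every library. The median distance of 1001 bp became 1521 bp with annotated transcripts only, 2150 bp on the strand of the locus, and 649 bp with merged loci. With unknown depth, values listed at 0 have no lower limit.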
